A study of Mus musculus with 2 samples.

Results

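The TIGIT axis is a small set of paired receptors and ligands on lymphocytes and the cells they meet. It is described here through 7 genes: the receptors Tigit, Pvrig, Cd96 and Cd226, and the nectin family ligands Pvr, Nectin2 and Nectin3. The genes were taken by symbol, without use of their values, and are 7 of the 32285 genes in the count tables. All 7 were detected, with between 20 UMIs (unique molecular identifiers, each counting 1 captured transcript) for Nectin3 and 4774 for Cd226 over both libraries.

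The study asked whether blocking TIGIT adds to microwave ablation (MWA) of a tumor in mice carrying a second, distant tumor. CD45+ cells, that is, leukocytes, were enriched with magnetic beads and sorted from the left MC38 tumor, which was not ablated, 8 days after MWA of the right tumor, and were profiled by droplet single-cell RNA sequencing of transcript 3′ ends. MC38 is a colon adenocarcinoma line grown under the skin of C57BL/6 mice. The 2 groups, with 1 library each, were MWA and MWA plus TIGIT, in which mice also received the anti-TIGIT antibody 1G9, by the labels in 3 injections 3 days apart from day 1 after ablation. In the study's tumor growth experiments the MWA group received an isotype control antibody, and the label of the MWA library names MWA only. All mice in both groups were C57BL/6, carried MC38 on both flanks and had the right tumor ablated, and there was no library from mice without ablation. The study used young adult males, and the number of mice behind a library is not given in the sources used here. With 1 library a group there was no replicate check and no p-value, and every 95% interval below covers the counting error of UMIs or cells only.

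TIGIT is an inhibitory receptor of T and NK cells that competes with the activating receptor CD226 (DNAM-1) for the same ligand, CD155, the product of Pvr. CD96 also binds CD155, and PVRIG (CD112R) binds CD112, the product of Nectin2, to which TIGIT and CD226 bind as well. CD155 and CD112 are displayed by antigen-presenting cells and by many tumor cells, and NECTIN3 is an adhesion molecule that pairs with other nectins. In tumors, TIGIT is best known from regulatory T cells (Tregs) and from exhausted CD8+ T cells, where blocking it is meant to leave CD155 to CD226. The sort on CD45 left out the MC38 cells, so the ligands on tumor cells were not measured.

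After filtering, 9231 cells of the MWA library and 9127 cells of the MWA plus TIGIT library remained, with medians of 5344 and 6337 UMIs, and 29 cell barcodes among them occurred in both libraries. Clusters were built without the 7 genes, and each was called "-like" a cell type by its leading genes. The classes are described here by the levels of defining markers. Foxp3, Cd8b1, Ncr1 and C1qa also served to sort or name the clusters, so their levels are no independent check of the names. Foxp3, the lineage factor of Tregs, stood at 451 and 530.4 CPM (UMIs scaled to a class total of 1000000) in Treg-like cells of the MWA and the MWA plus TIGIT library, against 4.43 and 6.66 CPM in conventional CD4-like cells. Cd8b1 stood at 659.9 and 806.8 CPM in all CD8-like cells, Ncr1 at 266 and 231 CPM in NK-like cells, and C1qa at 5223 and 5792 CPM in tumor-associated macrophage (TAM)-like cells. A sum of 14 tumor or stromal genes stood at 9.76 and 9.72 CPM in TAM-like cells, with 2 of the 14 at 0 in each library. Some names are looser than others: of the 2 clusters of C1q TAM-like cells 1 was led by Arg1, the Arg1 TAM-like cluster was led by the stress gene Hspb1, and interferon-induced-like CD8 cells held Foxp3 at 53.4 and 71.7 CPM.

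The background of transcripts from other cells was measured first. It can come from RNA set free into droplets or from doublets that were not removed, and the 2 sources cannot be told apart here. In TAM-like cells the T cell genes Cd3e, Cd3d, Cd3g and Trac stood at 0.456% to 0.612% of their level in CD8-like cells of the MWA library and at 0.192% to 0.342% in the MWA plus TIGIT library. Tigit, Cd226 and Cd96 in TAM-like cells lay in or near that range, at 0.558%, 0.598% and 0.718% of the CD8 level in the MWA library and at 0%, 0.139% and 0.555% in the other. These 3 receptors are therefore not read as expressed by TAM-like cells. Pvrig differed from them, at 14.9% and 17.4% of its CD8 level.

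The control regions just before the start of 3 of the receptor genes are printed here, since these receptors had most of their UMIs in T and NK cells. A window was found for 5 of the 7 genes among RefSeq sequences of GRCm38.p6, and each run of 240 bases leaves out the 10 bases next to the RefSeq start and holds no exon of the GENCODE annotation. The GENCODE start, which gives the gene positions below, lies 38 bases further downstream for Tigit and 30 for Pvrig, and for Cd96 it lies upstream by 3 bases. Capitals mark matches to 1 of 4 motifs searched on both strands.
Tigit, chr16:43664195-43664434, minus strand: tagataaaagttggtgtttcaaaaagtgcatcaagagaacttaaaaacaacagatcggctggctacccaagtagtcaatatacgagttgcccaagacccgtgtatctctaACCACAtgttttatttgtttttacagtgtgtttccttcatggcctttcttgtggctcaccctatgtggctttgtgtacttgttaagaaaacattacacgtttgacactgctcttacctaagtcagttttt
Pvrig, chr5:138341681-138341920, plus strand: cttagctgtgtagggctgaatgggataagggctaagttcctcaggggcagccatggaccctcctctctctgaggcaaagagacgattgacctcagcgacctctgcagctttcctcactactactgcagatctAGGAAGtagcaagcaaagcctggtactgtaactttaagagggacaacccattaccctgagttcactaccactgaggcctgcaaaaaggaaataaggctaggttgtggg
Cd96, chr16:46120259-46120498, minus strand: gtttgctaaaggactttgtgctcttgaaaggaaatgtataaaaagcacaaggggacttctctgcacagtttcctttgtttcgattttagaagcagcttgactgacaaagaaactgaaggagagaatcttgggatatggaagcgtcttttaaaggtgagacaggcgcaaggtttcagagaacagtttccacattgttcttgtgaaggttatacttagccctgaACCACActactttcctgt
The Tigit window holds the Runx letters TGTGGT in reverse, ACCACA, 140 bases before the RefSeq start, and the Cd96 window holds the same letters 28 bases before it. Runx letters occur in 13.6% of 32851 promoter windows of this length. The Pvrig window holds the Ets letters AGGAAG, found in 28.4% of windows, 118 bases before its RefSeq start. Neither the forkhead letters TGTTTAC (3.06% of windows) nor the AP-1 letters TGANTCA (6.58%) occur in the 3 windows. The GC content was 38.8% for Tigit, 41.2% for Cd96 and 50.8% for Pvrig. A match is a run of letters, and binding was not measured.

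Tigit transcripts were sparse and were concentrated in Treg-like cells. The gene (ENSMUSG00000071552) lies on chr16:43648867-43664146 of GRCm38, minus strand. Its 144 UMIs in kept cells of the MWA library and 167 in the MWA plus TIGIT library fell to 97.2% and 100% in T and NK cells. Treg-like cells, 729 and 589 in number, held 66 and 86 of these UMIs, or 35.2 CPM (interval 27.3 to 44.8) and 47.2 CPM (37.7 to 58.3). Tigit was thus highest in Treg-like cells of both libraries, and exhausted-like CD8 cells came next, with 24 and 28 UMIs and 13.1 and 20.5 CPM. The Treg-like level exceeded the exhausted-like level by 2.70-fold (1.67 to 4.50) and 2.30-fold (1.48 to 3.66).

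Below Treg-like cells no class could be told apart from its neighbor in the order at this depth. Exhausted-like cells stood at 1.10-fold (0.507 to 2.58) the next class, NK-like, in the MWA library and at 2.0-fold (0.856 to 5.44) the next, interferon-induced-like CD8, in the other. Classes further apart could differ, and in the MWA library the interval of NK-like cells (5.69 to 21.8 CPM) lay above that of conventional CD4-like cells (1.22 to 5.05 CPM). NK-like cells held 10 and 4 Tigit UMIs (11.9 and 6.56 CPM), and interferon-induced-like CD8 cells 4 and 7 (7.37 and 10.2 CPM). Effector-like CD8 cells held 5 and 9 UMIs (4.28 and 4.17 CPM), and cycling-like CD8 cells 12 and 17 (3.48 and 4.38 CPM). Conventional CD4-like cells, 986 and 816 in number, gave only 9 and 7 Tigit UMIs, 2.66 and 2.33 CPM. In stem-like CD8 cells, 127 and 156 cells, no Tigit UMI was seen, which allows up to 7.24 and 4.96 CPM by a floor of 3 UMIs.

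**Figure D1:**
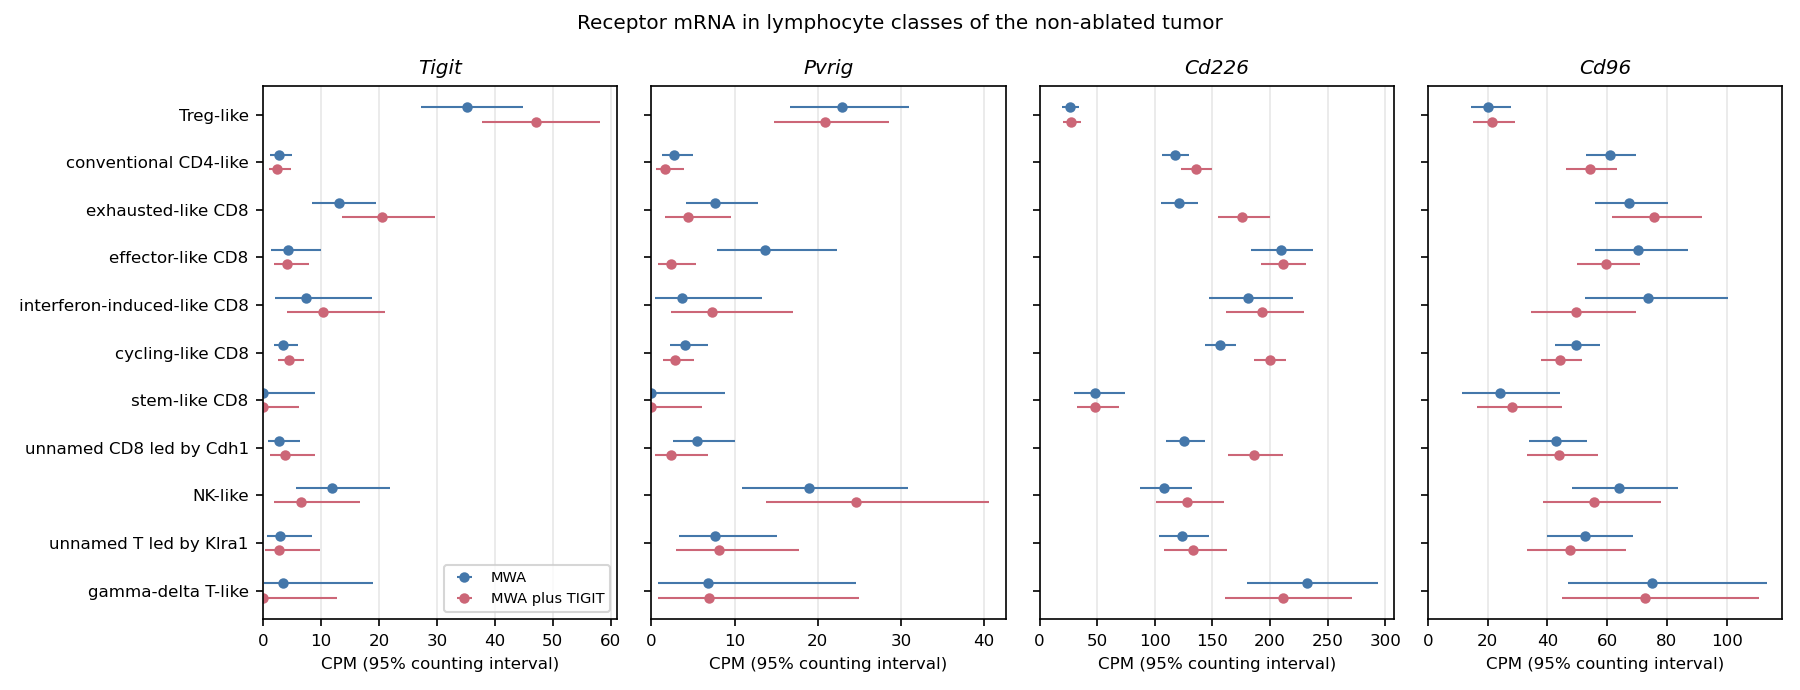
CPM of the 4 receptors in each T and NK cell class, with 1 point per library (MWA and MWA plus TIGIT) and bars for exact Poisson 95% intervals. Tigit peaks in Treg-like cells at 35.2 and 47.2 CPM, where Cd226 is at 26.2 and 27.4 CPM, its lowest level among the classes plotted.

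Set against conventional CD4-like cells of the same library, Treg-like cells had more Tigit and Pvrig and less Cd226 and Cd96. Tigit was 13.3-fold higher (6.57 to 30.3) in the MWA library and 20.3-fold higher (9.42 to 51.9) in the MWA plus TIGIT library. Pvrig was 8.63-fold higher (4.15 to 20.1) and 12.5-fold higher (4.92 to 40.8). Both inhibitory receptors thus stood above conventional CD4-like cells in each library taken alone, but by how much depended on how the classes were set. With classes set by UMIs of a few markers instead of clusters, Tigit was 4.20-fold and 5.41-fold higher and Pvrig 6.86-fold and 3.08-fold. Cd226 was at 0.222 (0.162 to 0.300) and 0.202 (0.147 to 0.271) of the conventional CD4-like level, and Cd96 at 0.333 (0.229 to 0.473) and 0.394 (0.271 to 0.562). By a rule of at least 1.5-fold with an interval excluding 1, 3 of the 5 members with at least 20 UMIs were higher and 2 lower in the MWA library, where 23.1% of all genes were higher and 4.77% lower. The third that was higher was Pvr, at 1.67-fold (1.05 to 2.67), against 1.43-fold (0.860 to 2.35) in the MWA plus TIGIT library, and its call was lost with doublets kept (1.48-fold, 0.937 to 2.32). In the latter library 2 members were higher and 2 lower, beside 21.6% and 5.84% of all genes. Class size and library depth do not enter these ratios, but fewer cells of a subtype and less RNA per cell cannot be told apart in class sums.

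Among CD8-like cells, Tigit was highest in the exhausted-like class. Its interval, 8.37 to 19.4 and 13.6 to 29.7 CPM, overlapped that of interferon-induced-like CD8 cells, 2.01 to 18.9 and 4.12 to 21.1 CPM. The exhausted-like level was 3.71-fold (2.04 to 6.73) and 4.66-fold (2.76 to 7.80) that of the other CD8-like cells pooled, where 26 and 38 Tigit UMIs were counted. Cd96 was also higher there, at 67.5 and 75.5 CPM against 51.5 and 47.4 CPM in the others, or 1.31-fold (1.06 to 1.61) and 1.59-fold (1.27 to 1.98). Cd226 was at 0.790 (0.681 to 0.913) of the others' level in the MWA library and at 0.930 (0.809 to 1.07) in the MWA plus TIGIT library. The rule called 1 of 5 members in the MWA library, Tigit, and 3 of 5 in the other, Tigit and Cd96 as higher and Pvr as lower, with 18.6% and 18.7% of all genes called. With at most 5000 UMIs per cell, which leaves out the deeper cells, the intervals of Tigit in the MWA library (0.942 to 6.82) and of Cd96 and Pvr in the other (0.882 to 2.46 and 0.0447 to 1.39) included 1.

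Between the libraries, the Tigit interval included 0 in every class. The log2 ratio of MWA plus TIGIT over MWA was 0.42 in Treg-like cells (−0.06 to 0.91), 0.65 in exhausted-like CD8 cells (−0.19 to 1.5) and 0.29 in all CD8-like cells (−0.26 to 0.85). None of the 5 members tested in Treg-like cells was called between the libraries, against 4.88% of all genes. The share of Treg-like cells with a Tigit UMI shows how much depth matters for so sparse a gene. It was 8.37% and 13.2% as sequenced, with median depths of 2211 and 2744 UMIs. With each cell thinned to 1000 UMIs the share became 4.80% (34 of 708 cells) and 4.33% (25 of 578), so no order between the libraries is read from it. In conventional CD4-like cells, thinned alike, 0.516% and 0.249% of cells held a Tigit UMI, and in TAM-like cells 0.0275% and 0%.

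Pvrig, the other receptor of CD112, shared the Treg-like peak and added NK-like cells. The gene (ENSMUSG00000109713) lies on chr5:138341961-138343557, plus strand. Treg-like cells held 43 and 38 UMIs, 23.0 CPM (16.6 to 30.9) and 20.8 CPM (14.8 to 28.6). NK-like cells, 166 and 117 in number, held 16 and 15 UMIs, 19.0 and 24.6 CPM, which was 3.13-fold (1.68 to 5.54) and 8.19-fold (4.09 to 15.7) the level of all CD8-like cells. Treg-like and NK-like cells were not separable from each other. The rule called 2 of 5 members between NK-like and CD8-like cells in the MWA library, Pvrig and, as lower, Pvr, and Pvrig alone in the other, against 16.7% and 16.9% of all genes.

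Pvrig was the 1 member called between the libraries in all CD8-like cells, where it was lower in the MWA plus TIGIT library. The 1903 and 2046 CD8-like cells held 56 and 30 Pvrig UMIs, or 6.06 and 3.0 CPM, which gives a log2 ratio of −1.01 (−1.70 to −0.35). It was the 1 member of 5 called there, against 4.63% of all genes. The 409 and 682 effector-like CD8 cells held 16 and 5 Pvrig UMIs (13.7 and 2.32 CPM), and the log2 ratio was −2.57 (−4.37 to −1.05), where 6.12% of all genes were called. In Treg-like cells the ratio was −0.14 (−0.81 to 0.52) and in NK-like cells 0.37 (−0.75 to 1.48). Exhausted-like CD8 cells held 14 and 6 Pvrig UMIs (7.62 and 4.40 CPM) and cycling-like CD8 cells 14 and 11 (4.06 and 2.84 CPM). The unnamed CD8 cells led by Cdh1 held 10 and 3 (5.49 and 2.31 CPM). These counts are few, and the interval of the log2 ratio included 0 in each of these 3 classes. Interferon-induced-like CD8 cells went the other way, with 2 and 5 UMIs (3.68 and 7.32 CPM), and stem-like CD8 cells held no Pvrig UMI.

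The share of CD8-like cells with a UMI of 1 T cell receptor segment also differed between the libraries. Cells with a UMI of Trav16, a T cell receptor alpha segment, made up 1.68% of CD8-like cells in the MWA library and 21.6% in the MWA plus TIGIT library, and 1.71% and 35.8% of effector-like cells. Without them, Pvrig had 55 and 27 UMIs in all CD8-like cells, and its log2 ratio of −0.87 (−1.59 to −0.18) still passes the rule. Trav16 was also on the marker list of effector CD8 cells and among the leading genes of the effector-like cluster. Its share in that class is therefore not independent of the class name.

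Cd226, the activating competitor of TIGIT, was the most abundant of the 7 transcripts in lymphocytes, with 2150 and 2624 UMIs in kept cells and 98.1% and 98.7% of them in T and NK cells. Its identifier is ENSMUSG00000034028. In the MWA library the order began with gamma-delta T-like cells at 232 CPM (68 UMIs), effector-like CD8 cells at 209 CPM (244 UMIs), interferon-induced-like CD8 cells at 181 CPM and cycling-like CD8 cells at 157 CPM, none separable from its neighbor. Cycling-like cells were 1.24-fold (1.06 to 1.46) above the unnamed CD8 cells led by Cdh1 at 126 CPM. Exhausted-like CD8 cells at 121 CPM, conventional CD4-like cells at 118 CPM and NK-like cells at 108 CPM followed without a separable step. The low end was clear in both libraries: stem-like CD8 cells stood at 48.2 and 48.0 CPM (20 and 29 UMIs), and Treg-like cells at 26.2 and 27.4 CPM (49 and 50 UMIs). Stem-like cells exceeded Treg-like cells by 1.84-fold (1.04 to 3.16) and 1.75-fold (1.07 to 2.82), and lay at 0.319 (0.194 to 0.495) and 0.244 (0.163 to 0.352) of the other CD8-like cells.

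B-like cells, 81 and 60 in number, held no Cd226 UMI, which allows up to 18.0 and 15.1 CPM.

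The balance of Tigit against Cd226 separated Treg-like cells from the other T and NK cell classes. Tigit made up 57.4% (47.8% to 66.6%) of the Tigit and Cd226 UMIs of Treg-like cells in the MWA library and 63.2% (54.5% to 71.3%) in the MWA plus TIGIT library. Exhausted-like CD8 cells followed at 9.76% (6.35% to 14.2%) and 10.4% (7.06% to 14.7%), and NK-like cells at 9.90% (4.85% to 17.5%) and 4.88% (1.34% to 12%). Conventional CD4-like cells stood at 2.21% and 1.69%, effector-like CD8 cells at 2.01% and 1.94%, and cycling-like CD8 cells at 2.17% and 2.15%. The intervals of Treg-like cells overlapped those of none of these classes. The share compares classes only, since the capture of the 2 transcripts may differ.

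**Figure D2:**
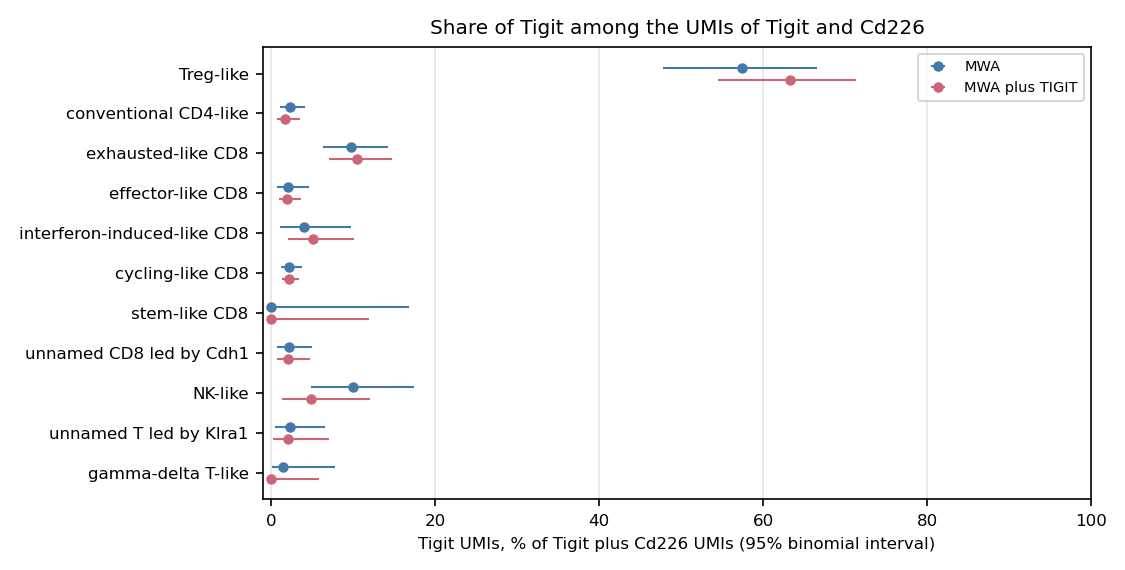
Percent of Tigit among Tigit plus Cd226 UMIs in each lymphocyte class of the MWA and the MWA plus TIGIT library, with exact binomial 95% intervals. Treg-like cells stand at 57.4% and 63.2%, exhausted-like CD8 cells at 9.76% and 10.4%, and conventional CD4-like cells at 2.21% and 1.69%.

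Between the libraries, Cd226 was higher in CD8-like cells of the MWA plus TIGIT library by less than the 1.5-fold of the rule. All CD8-like cells held 1353 and 1873 UMIs of Cd226, or 146.5 CPM (139 to 155) and 187.5 CPM (179 to 196), so that the log2 ratio was 0.36 (0.25 to 0.46). The median log2 ratio of all 11072 genes tested in these cells was 0.13, and the summed level of 14 T cell genes moved the same way, from 6689 to 7376 CPM. With TMM factors, which scale the 2 class sums to a common bulk of genes, the Cd226 ratio was 0.23 (0.13 to 0.34). Without Trav16 cells the levels were 145 and 183 CPM. Whether scaling or T cell RNA content accounts for the difference was not tested beyond these values.

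The Cd226 difference was not even over the CD8 classes. Effector-like cells stood at 209 and 211 CPM, a log2 ratio of 0.01, while the unnamed CD8 cells led by Cdh1 held 229 and 242 UMIs (126 and 186 CPM), with a ratio of 0.57 (0.30 to 0.83). Exhausted-like cells held 222 and 240 UMIs (121 and 176 CPM), with a ratio of 0.54 (0.27 to 0.81) that became −0.013 (−0.59 to 0.54) with at most 5000 UMIs per cell, and cycling-like cells 540 and 774, with a ratio of 0.35 (0.19 to 0.51). None of these 4 classes passed the 1.5-fold rule for Cd226, against 7.84% of all genes called in the cells led by Cdh1 and 6.80% in exhausted-like cells. In Treg-like cells the ratio was 0.07 (−0.53 to 0.67), in conventional CD4-like cells 0.21 (0.00 to 0.41) and in NK-like cells, with 91 and 78 UMIs, 0.24 (−0.21 to 0.70). The difference between the CD8 classes was not tested. Thinned to 1000 UMIs, 12.4% (11% to 14%) of CD8-like cells held a Cd226 UMI in the MWA library and 17.6% (16.0% to 19.4%) in the MWA plus TIGIT library, where the median depths were 4217 and 4060.5 UMIs and the unthinned shares 42.9% and 48.6%. Thinned TAM-like cells, which should lack the gene, gave 0.0550% and 0.0265%.

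Cd226 was called lower in TAM-like cells, with 29 and 11 UMIs (0.876 and 0.261 CPM) and a log2 ratio of −1.75 (−2.90 to −0.70). It was the 1 member of 5 called there, against 2.78% of all genes. The level is that of the background of T cell genes given above, and those genes moved with it, Cd3e from 3.20 to 1.90 CPM. The call was lost with doublets kept, at −0.56 (−1.14 to 0.01), and with classes set by marker UMIs, at −0.39 (−1.03 to 0.25).

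**Figure D3:**
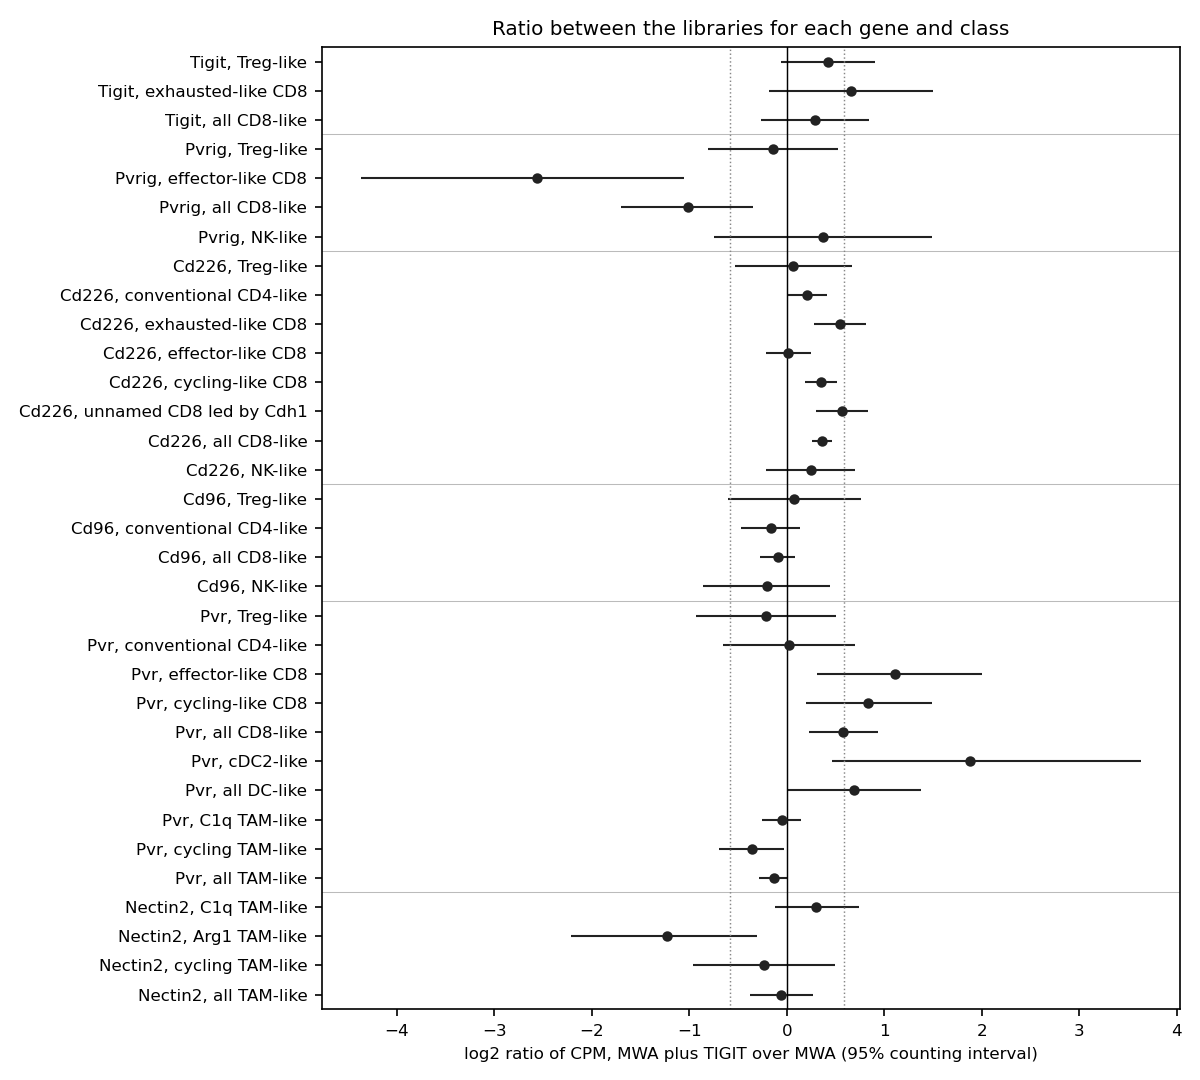
Log2 ratio of MWA plus TIGIT over MWA for members in selected classes with at least 20 UMIs, with exact conditional binomial 95% intervals and dotted lines at 1.5-fold. For Pvrig in all CD8-like cells the ratio is −1.01, for Cd226 in all CD8-like cells 0.36 and for Pvr in cDC2-like cells 1.88.

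Cd96, which binds CD155 as well, had the most even pattern of the receptors. The gene (ENSMUSG00000022657) lies on chr16:46035657-46120251, minus strand. Over gamma-delta T-like, CD8, NK-like and conventional CD4-like classes it ranged from 42.8 to 74.9 CPM in the MWA library and from 43.8 to 75.5 CPM in the other when stem-like cells are set aside, and no class in this range was separable from its neighbor. Stem-like CD8 cells stood at 24.1 and 28.1 CPM and Treg-like cells at 20.3 and 21.4 CPM (38 and 39 UMIs). The log2 ratio between the libraries was −0.09 (−0.27 to 0.09) in all CD8-like cells, with 505 and 512 UMIs, and −0.20 (−0.87 to 0.44) in NK-like cells, with 54 and 34 UMIs. In conventional CD4-like cells, with 206 and 163 UMIs, it was −0.17.

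In single cells, how often a second receptor was seen beside the first differed between classes. The counts that follow are as sequenced unless called thinned, so depth was not evened out in them. Of 61 and 78 Treg-like cells with a Tigit UMI, 3 and 3 also held Cd226 (4.92% and 3.85%), against 6.14% and 7.83% of the Treg-like cells without Tigit. In exhausted-like CD8 cells, 10 of 24 and 14 of 23 cells with Tigit held Cd226 (41.7% and 60.9%), against 44.6% and 53.2% of those without. As sequenced, Cd226 was thus found in exhausted-like cells with a Tigit UMI about as often as in those without. Conventional CD4-like cells with Cd226 held Cd96 in 72 of 288 and 65 of 272 cells (25.0% and 23.9%), against 15.3% and 13.6% of those without, but their median depth was also higher, 3815.5 against 2946.5 UMIs in the MWA library. Thinned to 1000 UMIs, the shares were 11.4% against 5.44% and 6.33% against 4.0%.

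Pvr, which encodes CD155, was found in both myeloid and T cells, and its level in Treg-like cells was close to that in TAM-like cells. The gene (ENSMUSG00000040511) lies on chr7:19903578-19921160, minus strand, and overlaps Gm16184 and Gm16251, which are annotated on the other strand. Of its 1079 and 1315 UMIs, 19.9% and 21.2% lay in T and NK cells. TAM-like cells, 3648 and 3774 in number, held 682 UMIs, 20.6 CPM (19.1 to 22.2), and 792 UMIs, 18.8 CPM (17.5 to 20.1). Treg-like cells held 38 and 32 UMIs, 20.3 CPM (14.4 to 27.9) and 17.6 CPM (12 to 24.8). The Treg-like level was thus 98.5% and 93.5% of the TAM-like level, whereas the macrophage genes C1qa, C1qb, Apoe and Lyz2 stood in Treg-like cells at 2.44% to 3.69% of theirs. Nectin2, the other ligand, had no UMI in Treg-like cells. Pvr in all CD8-like cells stood at 12.1 CPM, 58.9% of the TAM-like level, in the MWA library. In the MWA plus TIGIT library it stood there at 18.1 CPM, or 96.5%. Conventional CD4-like cells were lower than TAM-like cells in both libraries, at 12.1 and 12.3 CPM. In NK-like cells Pvr stood at 3 and 7 UMIs, 17.3% and 61.1% of the TAM-like level, and in B-like cells at 0 and 1 UMI.

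**Figure D4:**
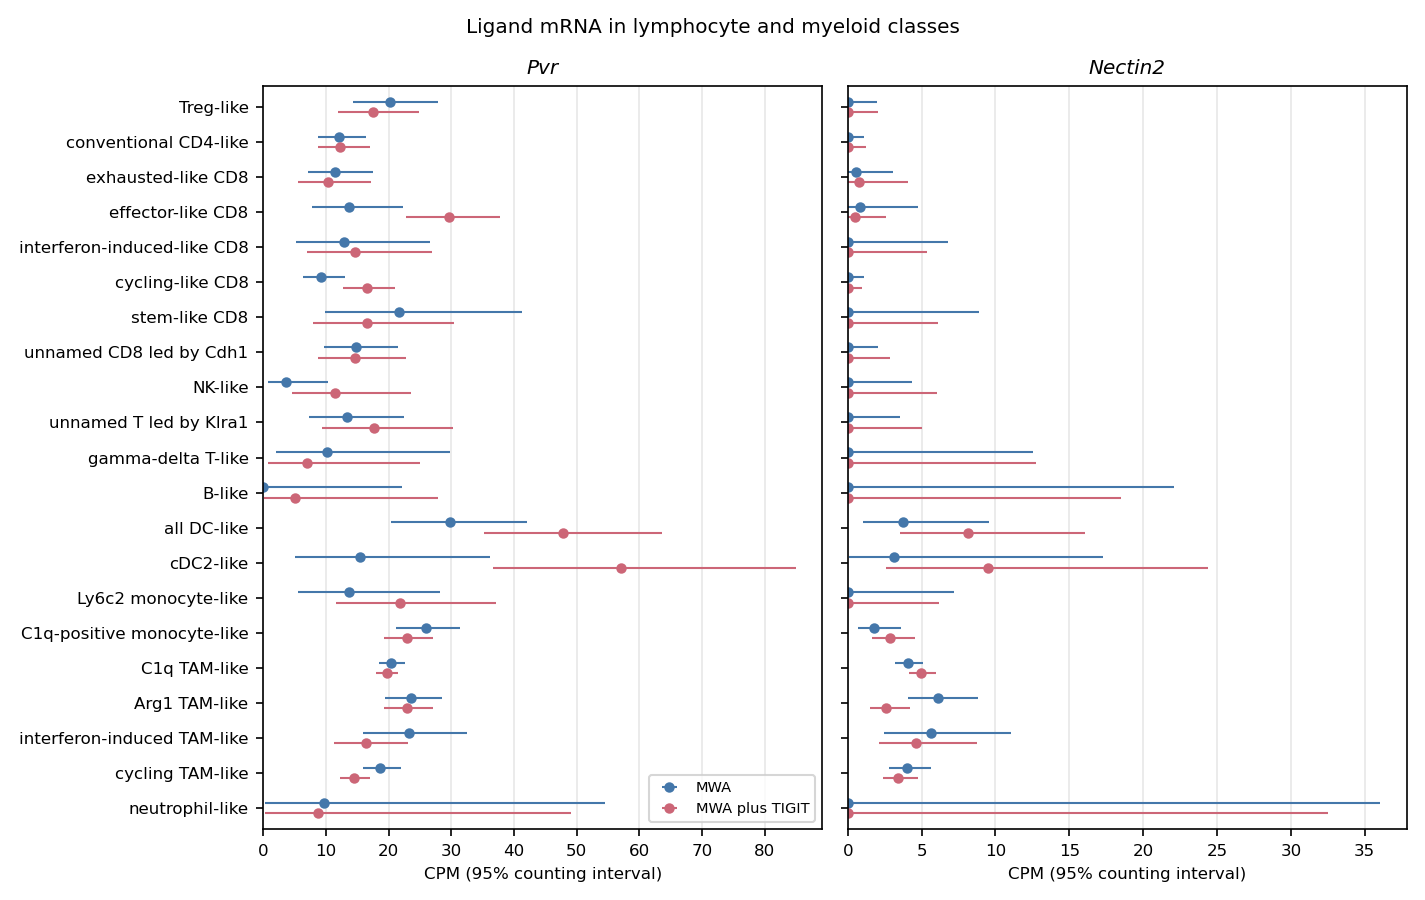
CPM of Pvr and Nectin2 in lymphocyte and myeloid classes, with 1 point per library and bars for exact Poisson 95% intervals. Pvr stands at 20.5 and 19.7 CPM in C1q TAM-like and at 20.3 and 17.6 CPM in Treg-like cells, while Nectin2 stands at 4.05 and 4.99 CPM in C1q TAM-like cells and has no UMI in Treg-like cells.

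Among TAM-like classes Pvr varied little. C1q TAM-like cells held 384 and 470 UMIs (20.5 and 19.7 CPM), Arg1 TAM-like cells 112 and 141 (23.6 and 23.0 CPM), interferon-induced TAM-like cells 33 and 32 (23.2 and 16.4 CPM) and cycling TAM-like cells 153 and 149 (18.7 and 14.6 CPM). C1q-positive monocyte-like cells were slightly above TAM-like cells, at 25.9 and 22.9 CPM, or 1.26-fold (1.01 to 1.55) and 1.22-fold (1.01 to 1.47). Between the libraries the log2 ratio was −0.13 (−0.28 to 0.02) in all TAM-like cells and −0.36 (−0.70 to −0.03) in cycling TAM-like cells, both within 1.5-fold.

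Dendritic cell (DC)-like cells, which prime T cells, had the highest Pvr level of the named myeloid classes in the MWA plus TIGIT library. Above them stood an unnamed cluster led by Mcpt2, of 259 and 313 cells with 35 and 35 Pvr UMIs, at 86.1 CPM (59.96 to 119.7) and 74.0 CPM (51.6 to 102.9). Its cells were shallow, with medians of 1386 and 1163 UMIs. A sum of 23 C1q TAM marker genes stood in it at 54601 and 50263 CPM, against 40991 and 46683 CPM in C1q TAM-like cells. All DC-like cells, 152 and 116 in number, held 32 UMIs, 29.8 CPM (20.4 to 42.1), and 47 UMIs, 47.9 CPM (35.2 to 63.7). Their level was 1.45-fold (0.981 to 2.06) that of TAM-like cells in the MWA library and 2.55-fold (1.86 to 3.42) in the MWA plus TIGIT library, where 28.9% and 28.7% of all genes differed by the rule. With classes set by marker UMIs the latter ratio was 1.72 (0.784 to 3.28), which includes 1. Between the libraries the log2 ratio of Pvr was 0.68 (0.01 to 1.38). Pvr was the 1 member with at least 20 UMIs in DC-like cells and was called, as were 7.85% of all genes. This call was at the edge: it was lost with TMM factors at 0.60 (−0.08 to 1.30), with doublets kept at 0.67, with at most 5000 UMIs per cell at 1.14 (−0.76 to 3.05) and with classes set by marker UMIs at 0.42 (−1.13 to 1.99). Among DC-like cells, the cDC2-like cluster of 53 and 53 cells held 5 and 24 Pvr UMIs (15.5 and 57.1 CPM), and the ratio of 1.88 (0.46 to 3.63) was called, as were 8.40% of all genes there. With at most 5000 UMIs per cell it was 1.71 (−0.86 to 4.48) and not called. These 24 UMIs came from 13 cells, with at most 4 in 1 cell. The name cDC2-like is loose as well. Its 10 leading genes held 5 cDC2 markers but also Siglech, Cox6a2 and Ccr9, which are markers of plasmacytoid cells. Cells with a Siglech UMI numbered 8 in the MWA library and 10 in the other, and without them Pvr had 4 and 24 UMIs and a ratio of 2.24 (0.70 to 4.23). Plasmacytoid cells in which no Siglech UMI was captured would remain in these counts. The smaller cDC1-like cluster (61 and 28 cells) held 14 and 14 Pvr UMIs (26.7 and 45.8 CPM), a ratio of 0.78 (−0.40 to 1.96). The mature DC-like cluster (38 and 35 cells) went the other way, with 13 and 9 UMIs (57.3 and 35.2 CPM) and a ratio of −0.70 (−2.11 to 0.63).

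Pvr was higher in the MWA plus TIGIT library in effector-like and cycling-like CD8 cells, and Trav16 cells moved with it. Effector-like cells held 16 and 64 Pvr UMIs, 13.7 CPM (7.84 to 22.3) and 29.6 CPM (22.8 to 37.9), which gives a log2 ratio of 1.11 (0.30 to 2.0). Pvr and Pvrig were the 2 members of 4 called there, against 6.12% of all genes. Without Trav16 cells the UMIs were 15 and 35 and the ratio 1.00 (0.09 to 1.98). Cycling-like cells held 32 and 64 Pvr UMIs (9.28 and 16.5 CPM), with a ratio of 0.83 (0.20 to 1.49), and Pvr was the 1 of 5 members called against 6.08% of all genes. That call was lost without Trav16 cells, at 0.50 (−0.20 to 1.21), with doublets kept, at 0.42 (−0.17 to 1.02), and with at most 5000 UMIs per cell, at 1.23 (−0.47 to 3.30). In all CD8-like cells the counts were 112 (12.1 CPM) and 181 (18.1 CPM), a ratio of 0.58 (0.23 to 0.93) that lies just under 1.5-fold. Without Trav16 cells they were 110 and 126 and the ratio 0.35 (−0.03 to 0.74), while the Trav16 cells of the MWA plus TIGIT library stood at 29.1 CPM. It was not called in exhausted-like cells or the cells led by Cdh1, and interferon-induced-like and stem-like cells had under 20 UMIs. Exhausted-like cells held 21 and 14 UMIs (11.4 and 10.3 CPM), the cells led by Cdh1 27 and 19 (14.8 and 14.6 CPM), interferon-induced-like cells 7 and 10 (12.9 and 14.6 CPM) and stem-like cells 9 and 10 (21.7 and 16.5 CPM).

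Nectin2, which encodes CD112, was restricted to myeloid cells at a low level. The gene (ENSMUSG00000062300) lies on chr7:19716644-19750483, minus strand, and overlaps the antisense gene Gm20512. TAM-like cells held 146 UMIs, 4.41 CPM (3.72 to 5.19), and 179 UMIs, 4.24 CPM (3.64 to 4.91), against 2 and 2 UMIs in all T and NK cells, a difference of 37.3-fold (10.1 to 311) and 35.3-fold (9.64 to 294). DC-like cells held 4 and 8 UMIs. Between the libraries the log2 ratio was −0.06 (−0.38 to 0.27) in all TAM-like cells. It was lower in Arg1 TAM-like cells, with 29 and 16 UMIs (6.12 and 2.61 CPM) and a ratio of −1.23 (−2.21 to −0.30), and 4.12% of all genes were called there. In C1q TAM-like cells, with 76 and 119 UMIs, it was 0.30 (−0.13 to 0.74). Pvrig, which encodes the receptor of CD112, had 80.8% and 80.2% of its UMIs in T and NK cells, and 30 and 22 UMIs, 0.906 and 0.522 CPM, in TAM-like cells.

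Nectin3 was close to the limit of detection. The gene (ENSMUSG00000022656) lies on chr16:46387706-46498525, minus strand. There were 9 and 11 UMIs in kept cells, of which TAM-like cells held 4 and 5 and CD8-like cells 2 and 1. No Nectin3 UMI was seen in Treg-like, NK-like or DC-like cells, and its level in DC-like cells could have been up to 2.79 and 3.06 CPM. No comparison was made.

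Beyond the 7 genes, a list of 18 genes of the pathway was followed: the related receptor Crtam, which binds the adhesion molecule encoded by Cadm1, the nectins Nectin1 and Nectin4, the nectin adaptor Afdn, the integrin LFA-1 (Itgal, Itgb2) that works with CD226, its signaling partners (Fyn, Vav1, Grb2, Prkcq, Plcg1), the inhibitory phosphatases and adaptor linked to TIGIT signaling (Inpp5d, Ptpn6, Ptpn11, Arrb2) and the Treg products Il10 and Fgl2. In all CD8-like cells, 1 of 15 tested was called higher in the MWA plus TIGIT library and 0 lower, with a median log2 ratio of 0.29 against 0.13 for all genes. The 1 gene was Crtam, with 118 and 216 UMIs (12.8 and 21.6 CPM) and a ratio of 0.76 (0.43 to 1.10). Of all genes, 4.63% were called in these cells. In Treg-like cells 0 of 14 were called in either direction, beside 4.88% of all genes, with a median of 0.17 against 0.06 for all genes. In NK-like cells 1 of 13 was called higher, Fgl2, with 77 and 91 UMIs (91.4 and 149 CPM) and a ratio of 0.71 (0.25 to 1.16). The median was 0.34 against 0.09, and 5.59% of all genes were called. In DC-like cells 0 of 14 were called, beside 7.85% of all genes. In TAM-like cells 0 of 18 were higher and 1 lower, beside 2.78% of all genes called in either direction. The 1 lower was the T cell kinase gene Prkcq, with 24 and 11 UMIs, a low count like that of Cd226 there.

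Within each library, 4 of 13 pathway genes tested were higher and 1 lower in Treg-like than in conventional CD4-like cells of the MWA library, and 3 and 1 of 13 in the other, beside the shares of all genes given for the members. Their median log2 ratio was 0.16 and 0.14, against 0.30 and 0.25 for all genes. Between exhausted-like and other CD8-like cells 3 and 4 of 15 were called, beside 18.6% and 18.7% of all genes. Between NK-like and CD8-like cells 5 and 5 of 15 were called, beside 16.7% and 16.9%. Between DC-like and TAM-like cells 8 of 17 and 7 of 16 were called, beside 28.9% and 28.7%. Il10, which encodes an immunosuppressive cytokine, stood at 169.8 and 206 CPM in Treg-like cells, 82.1-fold and 51.5-fold the conventional CD4-like level, and Fgl2, which encodes a secreted suppressive protein, at 139 and 160.2 CPM, 2.05-fold and 2.44-fold. Prkcq was at 0.385 and 0.402 of it. Nectin1 was the nectin of DC-like cells, with 55 and 46 UMIs, 51.2 and 46.9 CPM, 15.3-fold (10.8 to 21.3) and 16.3-fold (11.4 to 23.1) the TAM-like level. Cadm1, with 55 and 43 UMIs in DC-like cells, was carried by cDC1-like cells, at 97.2 and 128 CPM, against 0 and 1 UMI in cDC2-like cells. Cadm1 was 3.19-fold and 2.17-fold higher in DC-like than in TAM-like cells.

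The genes most like each member were sought over 40 class sums, 20 classes in 2 libraries, among 10877 genes, by Pearson's r of log2(CPM + 1). The sums share libraries, depth and clustering, so the values are descriptions. Closest to Tigit were Itih5 (r = 0.87), Ndfip1 (0.86) and the cytotoxic protease gene Gzmb (0.85), and closest to Pvrig Camk2n1 (0.87), Bspry (0.85) and Gzmb (0.84). Closest to Cd226 were Apol7e (0.97), the T cell surface gene Thy1 (0.97) and Gm29243 (0.96), and closest to Cd96 Skap1 (0.97), the T cell receptor constant gene Trbc1 (0.97) and Gprin3 (0.96). So both patterns ran with general T cell genes. Closest to Pvr were Otulinl (0.80), Thumpd3 (0.77) and Bscl2 (0.75), lower values than for any other member, and closest to Nectin2 Gm29340 (0.94), Adgrg6 (0.91) and Arhgap22 (0.91). Ranked by Spearman's rho, between 0 and 2 of each 3 genes stayed on the list. Between members, r was 0.96 for Cd226 and Cd96, 0.80 for Tigit and Pvrig and 0.63 for Tigit and Cd226.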

How the data were processed

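CD45+ cells of the non-ablated MC38 tumor were measured in 1 MWA and 1 MWA plus TIGIT library. The authors made 10x Genomics 3′ v3.1 libraries and deposited raw UMI counts of 32285 genes per cell barcode on mm10 (GRCm38), not normalized. The submitters' processing notes name Cell Ranger 6.1.1 and the matrix headers 4.0.0.

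The libraries held 10217 and 10190 barcodes with 66152465 and 78751205 UMIs. Barcodes with over 10% mitochondrial UMIs (179 and 276), under 200 genes (1 and 1) or called as doublets by a nearest-neighbor score (806 and 786) were left out. The caller found 64.7% and 64.0% of doublets added in simulated data. The authors' limit of 5000 UMIs could be read as an upper or a lower limit and was tried as an upper one. Integration and clustering used Seurat 5.3.0 under R 4.3.3 (2000 variable features per library, 40 principal components, resolution 0.1, then 1 for T and NK cells and 0.5 for CD8 and myeloid cells), with the 7 genes, the 18 pathway genes and the genes named in the paper's results left out of the features. Clusters were named from marker lists by their 10 leading genes, by naming rules that were chosen with the clusters in view.

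UMIs were summed per class and library and given as CPM, with exact Poisson 95% intervals. Ratios have exact conditional binomial intervals and shares exact binomial ones. A ratio was called where it reached 1.5-fold and its interval excluded 1, among genes with at least 20 UMIs over both sums. Tested on simulated data for all CD8-like cells (11072 genes), intervals held the true ratio for 95.6% of genes, and 92.5% of 200 genes changed by 1 on the log2 scale were called. The simulated counts were Poisson draws from a mean shared by both libraries, the counting error that the intervals assume. Variation between mice, libraries or cells was not part of this test. Shares of cells with a UMI of a member used cells thinned to 1000 UMIs, except where given as sequenced or unthinned. Where no UMI was seen 3 UMIs served as the upper limit. Python 3.11.15, numpy 2.4.6, scipy 1.17.1 and, as an alternative scaling, edgeR 4.0.16 (TMM) were used. Gene positions came from GENCODE vM21. The members and lists were chosen with earlier results of these data known. Named genes were the 7 members, called pathway genes (at most 4 per class, with other pathway genes named for their levels) and, for each member with at least 200 UMIs, the 3 genes with the highest Pearson's r.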

Additional observations from a re-analysis of the deposited data

Results flagged for a closer look

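The Cd226 log2 ratio between the libraries lay above 0 in the unnamed CD8 cells led by Cdh1 (0.57) and below 0 in C1q TAM-like cells (−2.93, from 18 to 3 UMIs), a difference of 3.50 that was not tested itself. In TAM-like cells Cd226 is at the level of the background of T cell genes. The Pvr log2 ratio lay above 0 in cDC2-like cells (1.88) and below 0 in cycling TAM-like cells (−0.36), a difference of 2.24 that was not tested either.

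Members were also counted in clusters that enter no comparison. Over both libraries, the unnamed T cells led by Gm42418, with a low median of 762 UMIs, held 18 UMIs of Cd226, 8 of Cd96 and 5 of Pvr. The unnamed T cells led by the heat-shock gene Hspa1a held 26 UMIs of Cd226, 17 of Cd96 and 6 of Pvr. Among myeloid cells, the cluster led by Mcpt2, with a low median of 1304 UMIs, held 70 UMIs of Pvr, at 86.1 and 74.0 CPM, and 4 of Nectin2. The cluster led by Ctsk, of 26 and 26 cells, held 15 UMIs of Pvr and 5 of the 20 Nectin3 UMIs seen in kept cells.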

How the results depend on the processing

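Of the values that answer a comparison, 115 stayed within their counting interval under the alternatives and 18 moved out of it; of the other values 2016 stayed, 151 moved and 1 reversed. Of 119 recomputations of a called ratio, 101 kept the call and 18 lost it. The reversal was Cd226 in exhausted-like CD8 cells, 0.54 on the log2 scale and −0.013 (−0.59 to 0.54) with at most 5000 UMIs per cell. With that limit the log2 ratio of Cd226 in all CD8-like cells was 0.20, of Pvr in TAM-like cells −0.42 and of Nectin2 in TAM-like cells −0.48. With TMM factors Cd226 in all CD8-like cells was at 0.23. With classes set by UMIs of a few markers, Treg-like over conventional CD4-like cells gave 4.20 and 5.41 for Tigit and 0.286 for Cd226 in the MWA plus TIGIT library, DC-like over TAM-like cells gave 1.72 (0.784 to 3.28) for Pvr there, and Tigit made up 41.2% and 51.7% of Tigit and Cd226 UMIs in Treg-like cells. Shares of cells moved with the depth kept: Tigit in Treg-like cells 8.37% and 13.2% unthinned and 7.64% and 8.96% at 2000 UMIs, and Cd226 in CD8-like cells 42.9% and 48.6% unthinned and 25.7% and 29.1% at 2000 UMIs. The cause of these moves was not tested. Other clustering resolutions moved 0 of 64 log2 ratios between the libraries, keeping doublets 1 of 64 and letting the members into the features 1 of 61. The limit of 5000 UMIs per cell moved the most: 10 moved, 1 reversed and 47 stayed. With TMM factors 2 moved and 65 stayed, and with classes set by marker UMIs 1 moved and 21 stayed. Leaving out Trav16 or Siglech cells, and the alternatives for Pvrig, Cd96 and Pvr between classes, were chosen after seeing the data. No paired analysis was possible because each group is 1 library, which also means that no library could be left out. Depth limits Tigit, Pvrig, Nectin2 and Nectin3 most, each with under 400 UMIs in all kept cells.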
